A study of Mus musculus with 56 samples.

Results

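The late and intermediate stages of the response to oleic acid (OA) were compared here inside 1 lot of mice. OA is an unsaturated fatty acid that damages the pulmonary capillary wall and floods the airspace when it is given in the blood, and it is used in mice as a model of acute lung injury. All mice of the study were wild-type C57Bl/6J females, 7 weeks old, anesthetized with xylazine and ketamine and injected in the tail vein with OA, at a volume of 20 µl or 1.2 µl for each gram of mouse, or with physiological serum. The sample codes hold a number after the letter L, taken here as a lot since neither the labels nor the paper explain it. The comparison holds the OA mice of lot 1, with 2 mice at 3 hours and 1 mouse at 4 hours (intermediate stage) against 3 mice at 18 hours and 3 mice at 24 hours (late stage). They make up 17 of the 56 samples of the series, with 6 microarrays of 3 intermediate mice and 11 microarrays of 6 late mice. Array 81, whose labels place a lot 1 mouse at 1.5 hours while the same code is used at 4 hours, was left out. Each sample is total RNA of the smallest lung of 1 mouse, labelled with 33P and hybridized to MUSV29K, a nylon membrane of cDNA clones from an NIA mouse clone set and from thymus, lymph node and spleen libraries. A level below is the log2 signal after the quantile normalization of the authors, as the mean of the arrays of a mouse, and no serum value was subtracted. Each spot is a clone with its own hybridization strength, so levels were compared between mice and never between genes.

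The RNA was of lung, as 7 of the 14 markers of lung cells asked for were on the membrane and all 7 were above the 95th percentile of the empty spots (9.01 on the log2 scale). Sftpd, a surfactant collectin of the alveolar type II cell, and Cdh5, the cadherin of endothelial junctions, were among them. A clone is called bright when the average of both stage means is above that percentile, which 2667 of the 7625 clones with a gene name were. Arrays of 1 mouse had a median r of 0.952 over 8 pairs. Arrays of different mice had 0.948 over 63 pairs with the same spelling of OA in the title and 0.940 over 65 pairs with different spellings. Each pair of arrays of 1 mouse differs in that spelling, except for P8L1, so 0.940 is the nearer value to set beside 0.952. The titles of arrays up to number 31 spell the agent AO and those from number 32 spell it OA. Mouse P12L1 had a single array, the dimmest of the 17, with a median log2 intensity of 6.75 against 7.76 to 9.09 for the others.

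Many of the genes that follow are known targets of the glucocorticoid receptor, the nuclear receptor for corticosterone, the stress hormone of the mouse. Bound to hormone, it raises transcription of inhibitors of inflammation such as Nfkbia, of its own chaperone Fkbp5 and of the metallothioneins Mt1 and Mt2, small cysteine-rich proteins that bind zinc and copper. Metallothioneins also respond to metals through MTF1, a zinc finger factor that reads metal response elements. In the injured lung, corticosterone, metals, cytokines and hypoxia can each raise these genes, and a lung extract does not separate them.

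The upstream sequences of Mt1, Map3k6 and Mt2 are shown because these genes hold 5 of the leading called clones and carry matches to the elements of these 2 pathways. They are the 250 bases before the annotated start in RefSeq, build GRCm38.p6, plus strand, with matches in capitals.
Mt1, chr8:94178839-94179088: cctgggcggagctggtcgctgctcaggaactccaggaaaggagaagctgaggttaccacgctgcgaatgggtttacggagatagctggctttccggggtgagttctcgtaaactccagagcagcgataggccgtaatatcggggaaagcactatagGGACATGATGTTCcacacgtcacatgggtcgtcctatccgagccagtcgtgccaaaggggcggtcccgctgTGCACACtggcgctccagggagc
Map3k6, chr4:133240568-133240817: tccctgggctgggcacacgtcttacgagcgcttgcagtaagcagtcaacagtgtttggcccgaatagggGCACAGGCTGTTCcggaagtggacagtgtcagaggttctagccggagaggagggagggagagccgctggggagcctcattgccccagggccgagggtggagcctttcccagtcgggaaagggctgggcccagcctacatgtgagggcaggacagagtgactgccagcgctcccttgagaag
Mt2, chr8:94172368-94172617: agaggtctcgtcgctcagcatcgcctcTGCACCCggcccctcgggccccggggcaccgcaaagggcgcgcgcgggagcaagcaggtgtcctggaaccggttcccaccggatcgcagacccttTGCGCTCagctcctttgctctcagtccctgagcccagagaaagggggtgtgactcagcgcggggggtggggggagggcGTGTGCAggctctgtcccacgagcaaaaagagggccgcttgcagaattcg
The capitals of 13 letters are matches to the palindromic glucocorticoid response element, a pair of inverted half-sites around a spacer, and the capitals of 7 letters are matches to the core of the metal response element, searched as TGCACNC or TGCGCNC on both strands. The 2 metallothionein genes lie side by side on chromosome 8, with annotated starts 6471 bases apart. Of the 44 gene symbols with a called clone, 43 were found in the RefSeq gene table (4 of them as older names) and 30 had a promoter in its table. The glucocorticoid element was matched in 2 of these 30 genes, Mt1 and Map3k6, and in 0.44% of the 27025 genes with a promoter. The metal element was matched in 10 of the 30 and in 23.8% of all. The clock E-box CACGTG was matched in 2 of the 30 (6.86% of all) and the heat shock element in 0 of the 30 (0.514% of all). These are matches of letters in a short window, and no binding was measured here.

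Between the stages 46 clones of 44 gene symbols were called (0.603% of 7625 clones tested, limma, Benjamini-Hochberg adjusted p below 0.05), and 37 of them were lower late (0.485%) and 9 higher late (0.118%). Cdkn1a fell most, 3.71-fold, followed among bright clones by Mt1, Mt2, Angptl4 and the lymphatic receptor Xlkd1 (now Lyve1), and no called clone rose by over 1.88-fold. Of the bright clones 28 were called (1.05% of 2667), of which 25 fell (0.937% of 2667) and 3 rose (0.112%), which were Lbh, Gsta4 and Ccl5. In each of the 46 the 3 intermediate mice and the 6 late mice did not overlap, as in 6.37% of all clones. The calls were made on the same mouse values, so this separation follows largely from the calling and is no separate support. At an unadjusted p below 0.05, 202 bright clones were lower (7.57%) and 159 higher late (5.96%), and the median difference over all clones was 0.01.

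**Figure D1:**
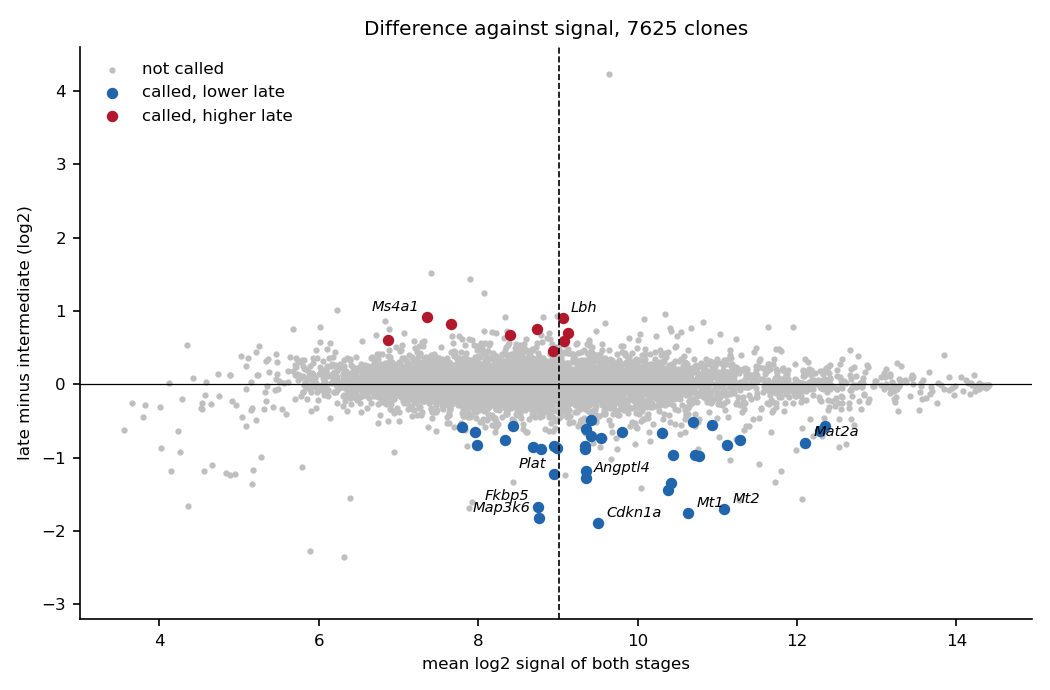
Late minus intermediate difference (log2) against the mean log2 signal of both stages for each of 7625 clones, with the 37 called lower clones in blue, the 9 called higher clones in red and the 95th percentile of the empty spots (9.01) as a dashed line. The called clones with the largest differences are lower late, and 18 of the 46 called clones lie left of the dashed line. The grey point above 4 is a clone of Rps16, which was not called.

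These calls rest on few mice. Without mouse P4L1, the only one at 4 hours, 9 clones were called, without P2L1 15, and without the dim P12L1 75. With the fitted spot intensities in place of the image intensities only 1 clone was called, Cdkn1a, although all 46 kept their sign under this and each other alternative in which they were tested. The lot was also measured in 2 sets of arrays, and each set holds 3 intermediate and 5 late mice. The arrays spelled AO gave 121 calls (1.59%) and those spelled OA 17 (0.223%), and the 46 clones, which were called on the mean of both sets, had the same sign in both. Over all clones the differences of the sets correlated with r = 0.17, and over the bright clones with r = 0.42, as a description across clones of the same mice.

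Cdkn1a encodes the cell cycle inhibitor p21, which p53 and glucocorticoids induce. Its level was 10.39, 10.46 and 10.51 in the intermediate mice, 8.83, 8.74 and 9.06 at 18 hours, and 8.12, 8.08 and 8.54 at 24 hours. All late mice were far below the intermediate mice, and the difference was -1.89 ± 0.20 (SE, limma adjusted p = 0.0035). In the arrays spelled AO it was -2.20 and in those spelled OA -1.67, and it was the only one of the 46 called under every alternative in which it was tested. The 24 hours mice were below the 18 hours mice by 0.63 ± 0.14, a difference not called across all clones (limma adjusted p = 0.162). Sesn1, a p53 target that restrains mTORC1, was 9.59, 9.64 and 10.10 in the intermediate mice and between 8.89 and 9.27 in the late mice (-0.70 ± 0.13, limma adjusted p = 0.0435).

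The metallothioneins are spotted as 2 clones of each gene, and all 4 clones fell. The brighter Mt1 clone was 11.44, 11.19 and 11.92 in the intermediate mice, against 9.35, 9.38 and 9.87 at 18 hours and 9.98, 9.95 and 10.02 at 24 hours. The brighter Mt2 clone was 11.94, 11.68 and 12.19 against 9.94, 10.03 and 10.05 at 18 hours and 10.24, 10.40 and 10.76 at 24 hours. The differences were -1.76 ± 0.20 for Mt1 (limma adjusted p = 0.00364) and -1.70 ± 0.18 for Mt2 (limma adjusted p = 0.0035). The duplicate clones gave -1.34 ± 0.23 and -1.44 ± 0.16. The mouse at 4 hours was the highest for all 4 clones, and in each clone the 18 hours mice were all below the 24 hours mice.

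Map3k6, a stress kinase upstream of JNK and p38, and Fkbp5, the receptor's cochaperone, were below the empty-spot percentile as an average of both stages, and all 3 intermediate mice for Map3k6 but only 2 of 3 for Fkbp5 were above it. Map3k6 was 9.57, 9.48 and 9.98 in the intermediate mice, 7.69, 7.42 and 7.44 at 18 hours, and 7.54, 8.53 and 8.49 at 24 hours (-1.82 ± 0.27, limma adjusted p = 0.0147). Fkbp5 was 8.89, 10.23 and 9.63 in the intermediate mice and lay between 7.58 and 8.59 in the late mice, with a median of 7.84 (-1.67 ± 0.28, limma adjusted p = 0.0245). Their late levels were those of spots without cDNA, so these folds may be smaller than the change in RNA. Klf9, a Krüppel-like repressor and receptor target, was 11.38, 11.17 and 11.23 against a late range of 10.01 to 10.74 (-0.97 ± 0.15, limma adjusted p = 0.0152).

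The list of glucocorticoid response genes holds 24 clones of 19 genes on the membrane, among them the 4 metallothionein clones. It was written with earlier results of these data known, so its counts beside those of all clones are a description and no separate support. In it 10 clones were called, all lower late, while 0.485% of all clones were called lower. Of its 19 bright clones, 14 were lower at an unadjusted p below 0.05 and none higher. Over all bright clones 7.57% were lower and 5.96% higher at that p. The median difference was -1.02, against 0.01 over all bright clones. Among those that were not called, Errfi1, an inhibitor of the EGF receptor, had differences of -1.33, -1.18 and -1.09 in its 3 clones, and Sgk (now Sgk1), a kinase that keeps the sodium channel ENaC at the membrane, had -1.02. Nfkbia, the inhibitor that holds NF-kB in the cytoplasm, had -0.87 and -0.75. Anxa1, Lcn2 and Zbtb16 of the same list had values near or above 0 (0.17, 0.01 and 0.24), so the list did not move as a whole. Dusp1, a MAP kinase phosphatase, had -0.44 ± 0.20.

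**Figure D2:**
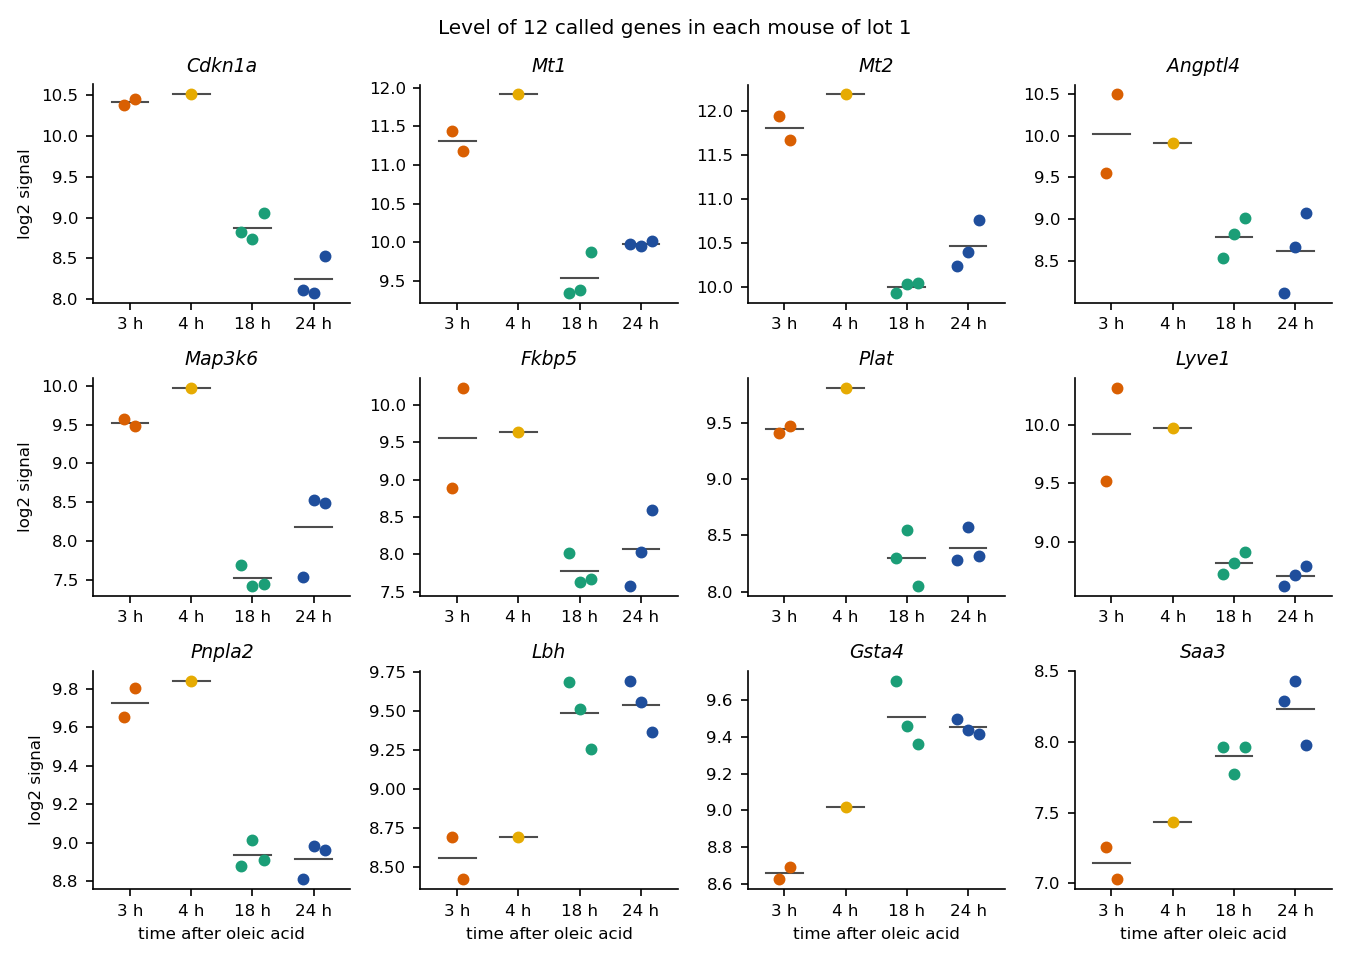
Log2 level of 12 called genes (1 clone each) in each of the 9 mice at 3, 4, 18 and 24 hours after OA, with a bar at the mean of each time. The first 9 panels fell and Lbh, Gsta4 and Saa3 rose, and in each panel the late mice lie on 1 side of the intermediate mice.

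Pnpla2 and Angptl4, which act on triglyceride, also fell. Pnpla2 encodes adipose triglyceride lipase, the enzyme that starts hydrolysis of stored triglyceride, and had the smallest p of all clones. It was 9.65, 9.81 and 9.84 in the intermediate mice, 8.88, 9.02 and 8.91 at 18 hours, and 8.81, 8.98 and 8.96 at 24 hours (-0.84 ± 0.09, limma adjusted p = 0.0035). Angptl4, a secreted inhibitor of lipoprotein lipase that fatty acids induce through PPARs, was 9.56, 10.49 and 9.92 against a late range of 8.13 to 9.08 (-1.28 ± 0.23, limma adjusted p = 0.0383). These were the only called clones of the list of fatty acid oxidation and PPAR targets. In it 5 of 18 bright clones were lower and 1 higher at an unadjusted p below 0.05, and the median difference was -0.05. Of all bright clones 7.57% were lower and 5.96% higher at that p. Acot2, a mitochondrial acyl-CoA thioesterase, had -0.49 ± 0.12 and Adfp (now Plin2), the coat protein of lipid droplets, -0.26 ± 0.11, neither called. The inhibitor of Pnpla2, G0s2, had 0.62 ± 0.15 (limma adjusted p = 0.123). Chka, which phosphorylates choline, and Ppap2a (now Plpp1), a lipid phosphatase, fell by 0.61 and 0.65.

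Plat and Xlkd1, both made by endothelial cells, fell, while the endothelial list had no called clone. Plat, the tissue plasminogen activator that endothelial cells release, was 9.42, 9.47 and 9.82 in the intermediate mice and lay between 8.05 and 8.58 in the late mice (-1.22 ± 0.14, limma adjusted p = 0.0035). As an average of both stages Plat was below the empty-spot percentile. Xlkd1, the hyaluronan receptor of lymphatic endothelium, was 9.52, 10.32 and 9.97 against 8.62 to 8.91 (-1.18 ± 0.15, limma adjusted p = 0.00818). The claudin of endothelial tight junctions, Cldn5, missed the threshold at -0.85 ± 0.17 (limma adjusted p = 0.0576), and Cdh5 had -0.48 ± 0.11. Of the 16 bright clones of the endothelial list, 4 were lower and 1 higher at an unadjusted p below 0.05, and the median difference was -0.10. The shares over all bright clones were 7.57% lower and 5.96% higher. Plat is not in that list, and Xlkd1 stands in it under its newer name and was not counted. Pecam1 (-0.15 ± 0.13) and Ace (0.03 ± 0.14), which are used as general markers of the lung endothelium, did not pass the test.

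Other called clones that fell have varied roles. Rapgef5, an exchange factor for Rap GTPases, was 10.58, 11.25 and 10.94 against a late range of 9.78 to 10.13 (-0.96 ± 0.14), and its 2 other clones had -0.65 and -0.55 without being called. DCHSMOUSE, the database name of histidine decarboxylase, the enzyme that makes histamine, fell from 11.39, 10.90 and 11.31 to between 10.01 and 10.53. Gprc5a, an orphan receptor that type I cells carry, fell from 12.76, 12.47 and 12.58 to between 11.76 and 12.12. The late range of each of these 3 clones was below every intermediate mouse. Map2k3, the kinase that activates p38, fell by 0.66, Birc3, a ubiquitin ligase of the TNF receptor complex, by 0.49, and the polyubiquitin gene Ubb by 0.82. Mat2a, which makes S-adenosylmethionine, fell by 0.79, and Eif1, which reads the start codon, by 0.57. Map2k3 and Mat2a have 2 clones each and Eif1 has 3, and only the clone given was called. Of the NF-kB and Toll-like receptor list, 7 of 14 bright clones were lower and none higher at an unadjusted p below 0.05. Among all bright clones 7.57% were lower and 5.96% higher. Birc3 alone was called, and the 7 clones came from Birc3, Nfkbia, Stat3 and Bcl2l1.

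In the list of ion transport across the alveolar epithelium, 4 of 10 bright clones were lower and none higher at an unadjusted p below 0.05. At that p 7.57% of all bright clones were lower and 5.96% higher. Nedd4l, the ubiquitin ligase that removes ENaC from the membrane, was called below the empty-spot percentile (-0.56 ± 0.09, limma adjusted p = 0.0212). Atp1b1, the beta subunit of the sodium pump, had -0.81 and -0.71 in its 2 bright clones and 0.18 in a dim clone, none called. The 14 bright genes of the surfactant and type II list had a median difference of 0.08 over 18 clones, and none was called.

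Few clones rose. Lbh, a transcriptional cofactor, was 8.70, 8.43 and 8.70 in the intermediate mice and between 9.26 and 9.70 in the late mice (0.91 ± 0.12, limma adjusted p = 0.00994). Gsta4, the glutathione transferase that clears the lipid peroxidation product 4-hydroxynonenal, was 8.63, 8.69 and 9.02 against 9.36 to 9.71 (0.70 ± 0.11, limma adjusted p = 0.0191). The antioxidant list had 6 of 36 bright clones higher and 1 lower at an unadjusted p below 0.05. Among all bright clones 5.96% were higher and 7.57% lower at that p. Of the higher ones in the list Gsta4 alone was called, with Gsto1 at 0.44 ± 0.10 and Prdx2 at 0.36 ± 0.10. Saa3, an acute phase apolipoprotein made by lung cells, rose from 7.26, 7.03 and 7.44 to between 7.77 and 8.43, all below the empty-spot percentile. The respiratory chain list, of subunits that make ATP in mitochondria, had no called clone. It had 9 of 68 bright clones higher and 0 lower at an unadjusted p below 0.05, against 5.96% and 7.57% of all bright clones. In it 57 of the 68 differences were above 0 with a median of 0.12, while 51.5% of all bright clones were above 0.

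Of the clones of blood cell lists only a few that were higher late were called, and fewer cells and less RNA per cell cannot be told apart in a lung extract. Ccl5, a chemokine of T and NK cells, was 8.82, 8.66 and 8.85 against 9.19 to 9.53 (0.59 ± 0.10, limma adjusted p = 0.0243) in 1 of its 2 clones, and the other was not called. The B cell receptor subunit Cd79b rose by 0.67 ± 0.12 in 1 of its 2 clones, and the other had 0.59 without being called. One of 4 clones of the B cell antigen Ms4a1 rose by 0.91 ± 0.13, while the other 3 had 0.27, -0.13 and -0.07, so the gene's direction is not settled. All of these Cd79b and Ms4a1 clones were below the empty-spot percentile. Over the whole B cell list, dim clones included, 10 of 33 clones were higher and 1 lower at an unadjusted p below 0.05, against 5.53% and 5.27% of all clones. Its 6 bright clones had a median of -0.09, with 1 higher and 1 lower at that p and 5 of the 6 below 0. The higher one was Igh-6 (now Ighm), the heavy chain of IgM, with 0.77 ± 0.16, and was not called. S100a8 and S100a9, the calcium-binding proteins that fill the neutrophil cytosol, were 12.53, 11.87 and 11.80 and 13.66, 12.39 and 12.50 in the intermediate mice. They ranged from 9.64 to 11.32 and from 10.52 to 12.06 in the late mice and missed the threshold (-1.58 ± 0.33, limma adjusted p = 0.0668, and -1.57 ± 0.36, limma adjusted p = 0.0924). The 4 other bright clones of the neutrophil list had values from -0.16 to 0.25.

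**Figure D3:**
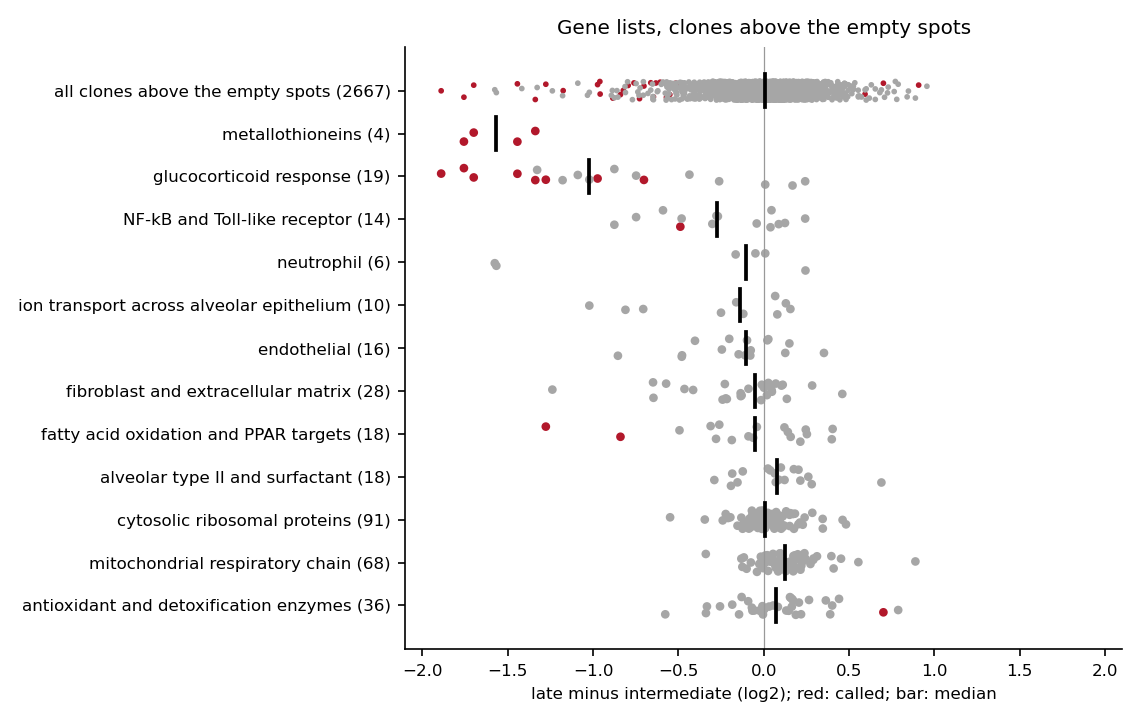
Late minus intermediate difference (log2) of the bright clones in 12 gene lists and in all 2667 bright clones (number of clones in brackets), with called clones in red and the list median as a black bar. The medians of the metallothionein and glucocorticoid lists lie near -1.57 and -1.02 and that of all bright clones at 0.01. The 4 metallothionein clones stand in both of these lists. The Rps16 clone at 4.23 lies outside the axis.

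Mice outside the rule gave a further measure of these clones. The intermediate stage also holds 8 OA mice of lots 2 and 3 at 3 and 4 hours. The mean of these 8 differed from the late lot 1 mean in the same direction for all 46 called clones, though barely for Ccl5 (9.36 against 9.37 late). In 24 of the 46 the 6 late mice lay wholly beyond these 8 mice, as for 1.73% of all clones. The late mice are those on which the 46 were called, so these counts are not independent of the calls. Cdkn1a was 9.23 to 11.30 in the 8 mice, Map3k6 9.33 to 10.07 and the brighter Mt2 clone 10.84 to 12.01, all above each late mouse of lot 1. Pnpla2 (8.54 to 9.80), Gsta4 (8.71 to 9.72) and Ccl5 (9.06 to 10.00) covered the late levels instead. No late mice of the other lots entered, so lot and stage cannot be told apart in that comparison.

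The serum arrays were read in the same way to see how far the change belongs to the time since injection. The intensities of 2 serum arrays at 3 hours, 2 at 18 hours and 1 at 24 hours were normalized with the 17 OA arrays. The tests on them used an error pooled over OA mice and serum arrays. An SE or p of a serum change is thus not the spread between these few serum arrays alone. Each serum array entered as its own unit, although the titles name no mouse for serum. The paper had 1 or 2 serum mice at each time and hybridized most samples to 2 arrays. The 2 serum arrays of a time may thus come from 1 mouse, and their SE and p are not a test between animals. The change in OA mice minus the change in serum arrays was called for 0 clones (limma, 0% of 7625), with 541 at an unadjusted p below 0.05 (7.1%), 20 of them among the 46. The 46 were chosen for their OA change, which is part of this contrast, so their share cannot be set against that of all clones. Without the second serum array at 3 hours 399 clones were called, and 1 of these was among the 46. These serum levels come from another normalization than the OA levels above, so a level set across them is approximate. The first serum array at 3 hours was the dimmest, with a median log2 intensity of 5.73 against 7.00 to 8.39 for the others. The serum change had the same sign as the OA change in 40 of the 46, and 15 of these had an unadjusted p below 0.05 in serum. Of all clones 11.2% had such a p in serum in either direction, which is not a like share. The share of all clones with the same sign was not counted, so neither count can be read as particular to the 46.

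Some clones changed about as much in serum arrays as in OA mice. Cirbp, a cold-inducible RNA-binding protein whose level follows body temperature, was 8.86 and 8.88 in the serum arrays at 3 hours and 7.75, 7.92 and 8.01 later, a change of -0.98 ± 0.14 against -0.78 in OA mice. It was 1 of the 2 clones called for the serum change (0.0262% of clones, limma adjusted p = 0.023), beside Cdk5rap1, which was not called in OA mice. Both clones were below the empty-spot percentile as an average of the OA stages. Klf9 was 10.70 and 10.17, then 9.30, 9.35 and 9.12, a change of -1.18 ± 0.20 in serum against -0.99. Ubb changed by -0.68 ± 0.16 in serum against -0.85, and Sesn1 by -0.56 ± 0.17 against -0.72. Of the bright called clones that rose, Lbh changed by 0.67 ± 0.24 in serum against 0.90. Gsta4 (0.04 ± 0.21 in serum against 0.68) and Ccl5 (-0.03 ± 0.24 against 0.57) did not share this.

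For the clones that fell most, the 2 serum arrays at 3 hours lay far apart. Cdkn1a was 10.50 and 8.85 in the serum arrays at 3 hours and 9.13, 8.33 and 8.26 later. The brighter Mt2 clone was 10.88 and 9.50, then 9.03, 9.42 and 10.06, and Map3k6 was 9.48 and 8.09, then 8.18, 8.14 and 7.90. The dim serum array at 3 hours lay near the intermediate OA mice for Cdkn1a and Map3k6, and the other was nearer to the late mice. The OA change exceeded the serum change by 0.81 ± 0.51 for Cdkn1a, 1.11 ± 0.46 for Mt2 and 1.12 ± 0.51 for Map3k6, none called.

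Other clones had almost no change in serum. Pnpla2 was 10.04 and 9.61 in serum at 3 hours and 9.71, 9.76 and 10.34 later (0.11 ± 0.18), so that OA and serum changes differed by -0.96 ± 0.23. Plat (-0.19 ± 0.19 in serum against -1.22), Rapgef5 (-0.03 ± 0.20 against -0.96) and Map2k3 (0.09 ± 0.14 against -0.67) were similar in this. Saa3 had -0.22 ± 0.24 in serum against 0.84 in OA mice. The smallest adjusted p of the difference among the 46 was 0.463, so none of these contrasts passed across all clones.

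**Figure D4:**
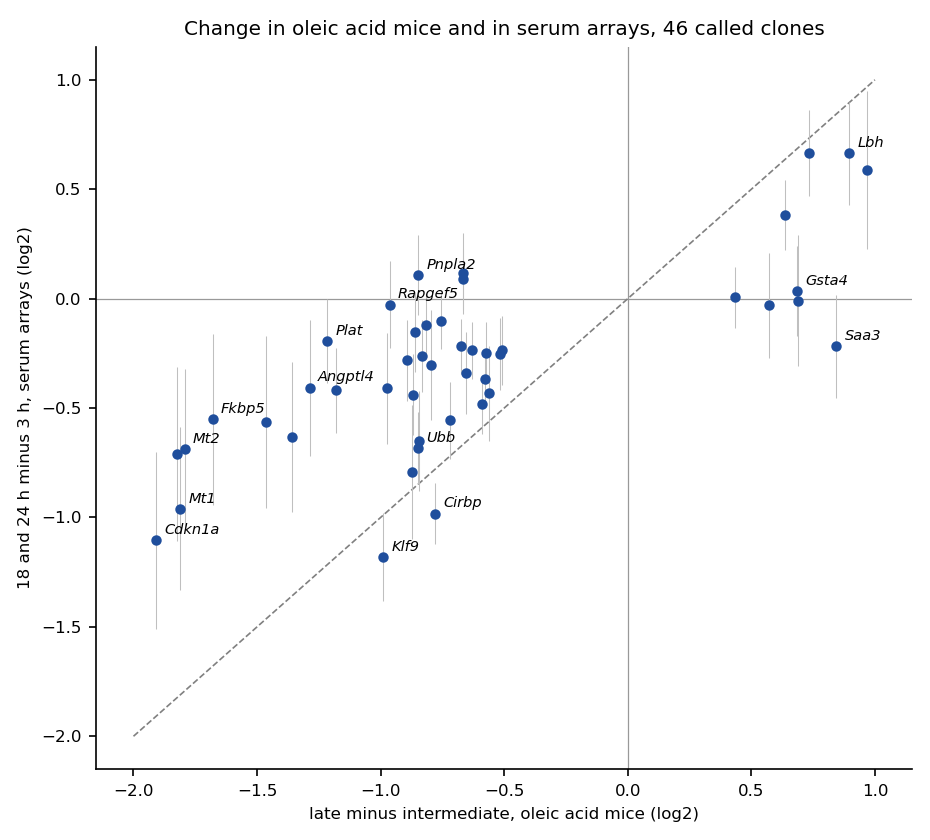
Change in 5 serum arrays (18 and 24 hours minus 3 hours, log2, with SE bars) against late minus intermediate in the 9 OA mice (log2) for the 46 called clones, both from intensities normalized together. On the dashed line both changes are equal. Klf9 and Cirbp lie just below it, and Pnpla2, Rapgef5 and Plat lie near a serum change of 0.

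The late stage was not uniform. Between 18 and 24 hours 5 clones were called (0.0656% of 7625), and none was among the 46. Tef, a PAR bZIP factor of clock output, was 8.64, 8.72 and 8.50 at 18 hours and 10.03, 10.16 and 9.90 at 24 hours (1.41 ± 0.11, limma adjusted p = 0.00165), with the intermediate mice between at 9.43 to 9.63. Its other clone had 0.88 ± 0.16. Apoe, a lipoprotein ligand, and Gnmt, a methyltransferase with its main site in liver, were higher at 24 hours by 0.97 and 1.15. Spon2, a matrix protein, was lower by 0.94.

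The 24 hours pattern ran through clones of plasma proteins. Alb1 (now Alb), the serum albumin made by hepatocytes, was 12.89, 11.74 and 12.47 in the intermediate mice, 10.98, 11.51 and 12.17 at 18 hours, and 13.30, 13.56 and 13.00 at 24 hours. Hpxn (now Hpx), the heme scavenger hemopexin, was 9.67, 8.73 and 9.10, then 9.51, 9.54 and 9.32, then 10.48, 10.68 and 10.52. The late minus intermediate difference of Hpxn, 0.84 ± 0.33 (limma adjusted p = 0.386), thus came mainly from the 24 hours mice, in which Alb1 was also highest. Fga, the fibrinogen alpha chain (0.33 ± 0.42), and Tcea1, an elongation factor (0.65 ± 0.57), had their lowest mean at 18 hours and their highest at 24 hours, as Alb1 did. At 24 hours Fga was 9.72, 10.20 and 9.79 and Tcea1 11.67, 11.86 and 11.76. The order of single mice differed from that of Alb1, and Fga of intermediate mouse P2L1 (9.73) was as high as the lowest 24 hours mouse. The serum array at 24 hours was high as well, with 12.94 for Alb1 and 11.94 for Tcea1 against 8.78 and 8.47 and 7.46 and 8.03 at 18 hours. Other liver markers, Ttr and Ahsg, were below the empty-spot percentile in the mean of both stages. The part of liver-type RNA in these values was not tested.

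**Figure D5:**
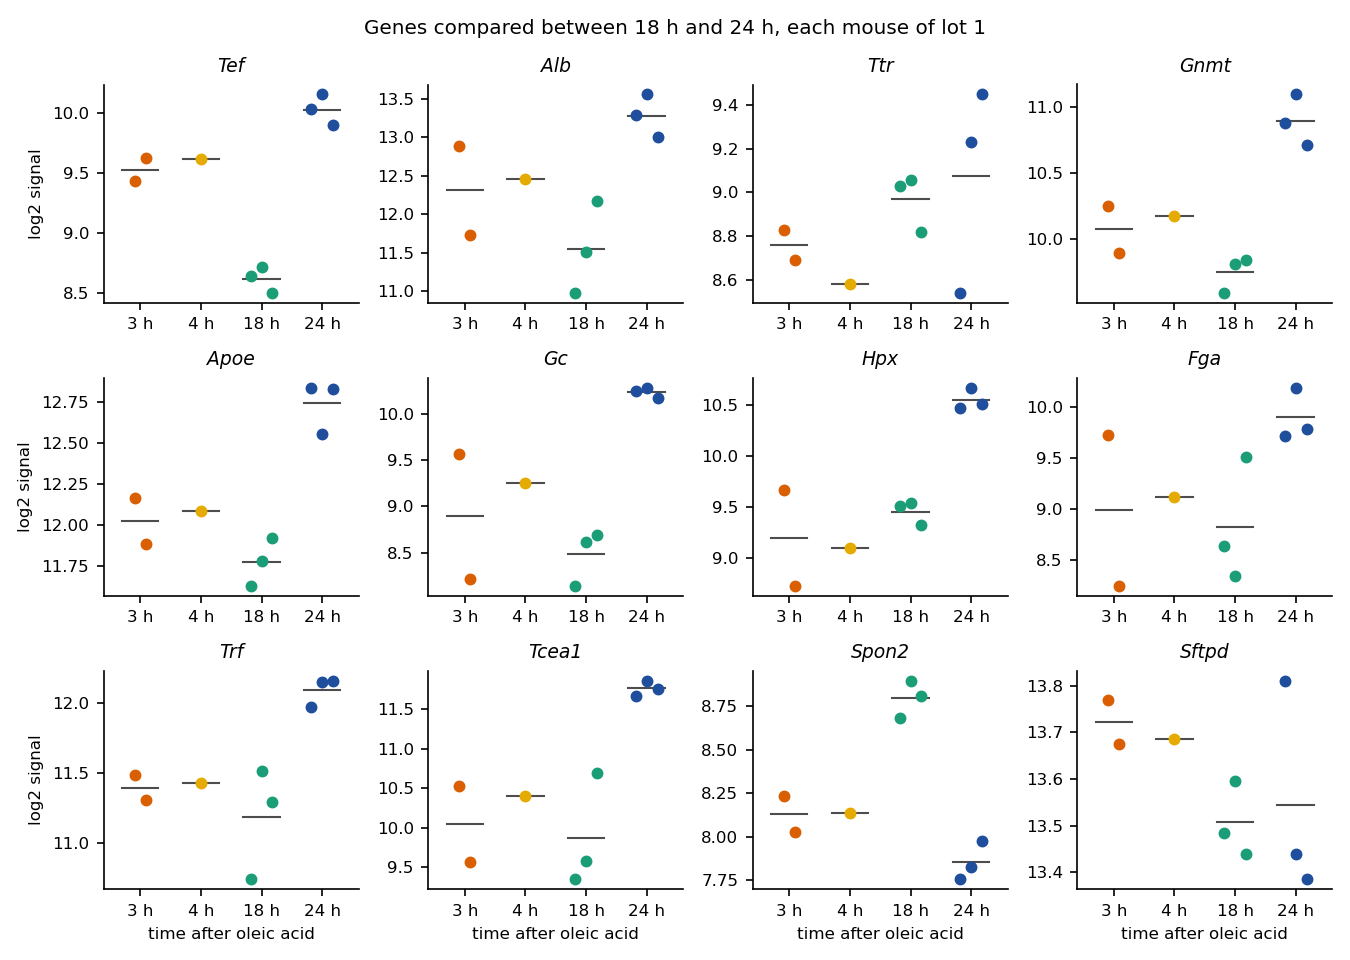
Log2 level of 12 genes (1 clone each) in each of the 9 mice, with a bar at the mean of each time. In the panels of Tef, Alb, Gnmt, Apoe, Gc, Hpx, Fga, Trf and Tcea1 all 24 hours mice lie above all 18 hours mice. Spon2 is the reverse, and Ttr and Sftpd have no such order.

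Clones that the study or its earlier results had named did not all change. A4galt (0.05 ± 0.15), Cklf (0.06 ± 0.14), Fasn (-0.15 ± 0.17), Napsa (0.12 ± 0.15), Slc34a2 (-0.19 ± 0.15), Sftpd (-0.18 ± 0.11) and Smad7 (0.21 ± 0.20) were not called, and Smad7 was below the empty-spot percentile. The paper placed Smad7 and Slc34a in its cluster Late, with a peak at 24 hours. It compared serum-subtracted values over all stages, which is another measure than the one here. Smad7 was higher at 24 than at 18 hours by 0.53 ± 0.17 and Slc34a2 by 0.32 ± 0.15, neither called. The lists of cytosolic ribosomal proteins (median 0.01 over 91 bright clones), proteasome subunits (-0.03 over 31), MHC class II (-0.02 over 8), interferon response (-0.05 over 21), cell cycle (0.01 over 17), heat shock proteins (0.04 over 47) and hemoglobin and red cell genes (-0.03 over 17) had no called clone. Most hemoglobin clones reached 14.41, the top of the scale, so a change in them could not be read. The clock list had 7 bright clones with a median of -0.11 and no call between the stages.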

How the data were processed

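The authors quantified 33P images of MUSV29K nylon arrays with Bzscan2, corrected the sample signal for neighbourhood and local background, and quantile-normalized it. They deposited a log2 value table of the series (1 column per OA array, 1 per serum time point) and, for each array, linear intensity values by several spot models. The OA columns follow the image intensity at constant diameter of their own array (r of 0.997 or more). Their serum columns are pooled and were not used. The labels name no genome build.

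Here arrays of 1 mouse were averaged on the log2 scale. Late and intermediate mice were compared with limma 3.58.1 (lmFit, eBayes) in R 4.3.3 on 7625 named clones, with 512 empty, 200 control and 1647 unnamed spots left out, Benjamini-Hochberg adjustment and a threshold of 5%. Samples were read with jsonlite 2.0.0. A gene with several clones is given by its brightest, unless another is named. For the serum comparison, image intensity (floor 1) was log2-transformed and quantile-normalized over 22 arrays, and a contrast of 4 groups was fitted. The named genes are all bright, called clones without overlap up to 12 in each direction, up to 3 bright members of each of 32 gene lists, and 16 genes named by the study or earlier results. Dim called clones and a few other list members or markers were added after their values were seen. The members and the lists were chosen with earlier results of these data known. Alternatives were other intensities and scalings, filters, array sets, mouse blocks, mice of other lots, single times, and leaving out each mouse or serum array. The fits were tested on simulated data. Results for some genes are not reported here. The number of arrays limits the precision.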

Additional observations from a re-analysis of the deposited data

Results flagged for a closer look

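Among the 134 clones named by rule, 9 (6.72%) had 1 late mouse far from the other 5, where chance gives about 1 in 20. The gap to the nearest mouse, as a share of the range of the 6 late mice, was 0.760 for Sgk (P12L1 high, 10.00 against 8.84 to 9.12), 0.732 for Dynlrb2 (P10L1 high) and 0.652 for Cldn5 (P11L1 high). P12L1, the mouse with the dimmest array, was low for Cox7a2 (0.696), H2-Oa (0.702) and Acly (0.658). P11L1 was high for Psmb5 (0.639), P6L1 low for Csnk1d (0.686) and P10L1 low for Ctgf (0.649). The dim array's part in these values was not tested.

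Between 18 and 24 hours, 5 clones differed by a test of the difference itself (limma adjusted p below 0.05), among them 4 with 24 minus 18 hours at 1.41 for Tef, 1.15 for Gnmt, 0.97 for Apoe and -0.94 for Spon2. The 3 mice of each time did not overlap in any of these 4.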

How the results depend on the processing

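All 46 called clones kept their direction under each alternative in which they were tested, which was 23 to 25 of 25 since filters on dim clones left some out. The counts, given as all, higher late, lower late and bright, were 46, 9, 37 and 28, and they moved as follows. Fitted intensities gave 1, 0, 1 and 1. Testing bright clones alone gave 51 bright calls, and clones above the empty spots on every array gave 3 higher calls. Arrays as samples with the mouse as a random block gave 159, 48, 111 and 90, and adding the array set as a term, chosen after seeing the data, gave 164, 56, 108 and 95. The AO arrays gave 121, 63, 58 and 59, and the OA arrays 17, 2, 15 and 11. Intermediate mice of all lots gave 210, 80, 130 and 99. The 18 hours mice alone as late stage gave 18, 0, 18 and 12, and the 24 hours mice alone 23 higher and 15 lower. The 3 hours mice alone as intermediate stage gave 9, 2, 7 and 6. Leaving out 1 mouse gave 9 to 75 calls in all, 2 to 27 higher, 7 to 48 lower and 6 to 43 bright.

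The 5 calls between 18 and 24 hours became 0 with fitted intensities, 24 when bright clones alone were tested and 0 on the OA arrays, and 1 to 8 without 1 mouse. The 0 calls of OA minus serum change became 0 to 399 without 1 serum array, and no mouse was left out there. Of 88 named clones that were not called, 24 were called and 24 changed sign under at least 1 alternative. The cause was not tested. No paired analysis was possible because the stages share no mouse and their replicate codes do not match.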
